A study of Salmo salar with 12 samples.

Results

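The first response of liver chromatin to a long-light photoperiod was examined in female Atlantic salmon by comparing ATAC-seq libraries of T2 with those of T1. The comparison was defined by sample labels alone, as 6 of the 12 liver libraries of the time course, with 3 biological replicates at each time point. T1 was taken just before the switch to long light, and T2 was the first of the later samplings, which were spaced by 2 weeks. All fish were female brood stock of 1 management group, and 4 were sampled at each time point. They were of about 36 months post fertilization in April, and T1 was taken in June of that year. No fish were held on unchanged light, so that the light regime, the calendar date, the age of the fish and the sampling day cannot be told apart in a difference between T1 and T2. Of 94780 consensus peaks, 92360 had a CPM (the counts-per-million unit, relative to all counts in peaks of a library) above 1 in at least 2 of the 6 libraries, and these are the peaks described.

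In ATAC-seq the transposase Tn5 cuts and tags DNA that is not covered by nucleosomes, and a peak is a stretch of genome where such tags pile up. Accessible stretches in liver include promoters of active genes, which tend to be open in many cell types, and distal enhancers, which vary more with hormones, feeding and season. In maturing female fish the liver responds to estrogen from the ovary and produces vitellogenin, the precursor of egg yolk, so that its regulatory DNA is a natural place to look for an early response to photoperiod. In the count table used here the peaks carry a number only. Their positions and genes were not analysed here, so that no peak was assigned to such a gene, no sequence is shown, and the label liver was not checked against marker genes. A lower count can come from fewer cells with an open site or from a site that is less open in each cell, and the counts do not separate these.

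The libraries held 11796690, 21349942 and 31312069 counts in peaks at T1 and 22714461, 17139509 and 21626878 at T2. Both the shallowest and the deepest library were thus from T1, and the T2 libraries were closer in depth. No library was a copy of another: counts of replicates differed by 6.70 to 14.9 times their sampling variance (chi-square per degree of freedom). The share of counts that fell in the most accessible 10% of peaks, ranked by the later T3 and T4 libraries, was 38.4%, 44.8% and 41.9% at T1 and 43.0%, 42.6% and 43.3% at T2. The T1 values enclosed those of T2, and the mean difference of 1.28 percentage points did not exceed the spread between libraries (exact two-sided permutation test, P = 0.7, smallest possible P 0.1, n = 3 each).

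The fitted changes of most liver peaks were small at T2. The fitted log2FC (T2 over T1) had a median of -0.002 over the tested peaks, 90% of peaks lay between -0.89 and 0.79, and the median absolute change was 0.27. Of all peaks, 47.2% differed by less than 0.25 on the log2 scale, 26.7% by 0.25 to 0.5 and 19.9% by 0.5 to 1. Changes of more than 2-fold were fitted for 5710 peaks (6.18%), of which 2395 were higher and 3315 lower at T2. More than 4-fold changes were rare, with 226 peaks higher and 205 lower. The centre at 0 is set by the TMM scaling. With the study's uniquely mapped reads as library sizes the median moved to 0.18, so that every direction given here is relative to the bulk of peaks.

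A peak was taken as a differentially accessible region (DAR) when the edgeR quasi-likelihood test gave it an adjusted P under 0.05 and its absolute log2FC exceeded 1. There were 89, or 0.0964% of tested peaks, with 40 more accessible (0.0433%) and 49 less accessible (0.0531%) at T2. The fold criterion removed none of them: each of the 89 peaks past the adjusted P also exceeded 2-fold, and the smallest absolute log2FC among them was 1.201. Of the 5710 peaks beyond 2-fold, 1.56% were thus DARs. Before adjustment, 11251 peaks (12.2%) had a P under 0.05, 5298 higher and 5953 lower at T2. Between an adjusted P of 0.05 and 0.2 lay a further 2869 peaks, 1344 higher and 1525 lower, with a median absolute log2FC of 1.14, and 1036 of them changed by less than 2-fold.

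To describe the change by accessibility, the tested peaks were divided into 10 levels of 9236 peaks by their mean log2 CPM over the 6 libraries. The median CPM, taken back from mean log2 CPM, rose from 1.12 in level 1 to 5.88 in level 6 and 39.3 in level 10. The spread of log2FC fell steadily along this scale, from an SD of 0.80 in level 1 to 0.53 in level 5 and 0.27 in level 10. Changes of more than 2-fold were fitted for 18.2% of peaks in level 1, 9.70% in level 2, 6.11% in level 5, 3.57% in level 7 and 0.639% in level 10. The most open peaks of salmon liver were the least changed in fold. In level 10, 72.4% of peaks differed by less than 0.25 on the log2 scale and 59 by more than 2-fold, against 26.4% and 1679 in level 1.

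**Figure D1:**
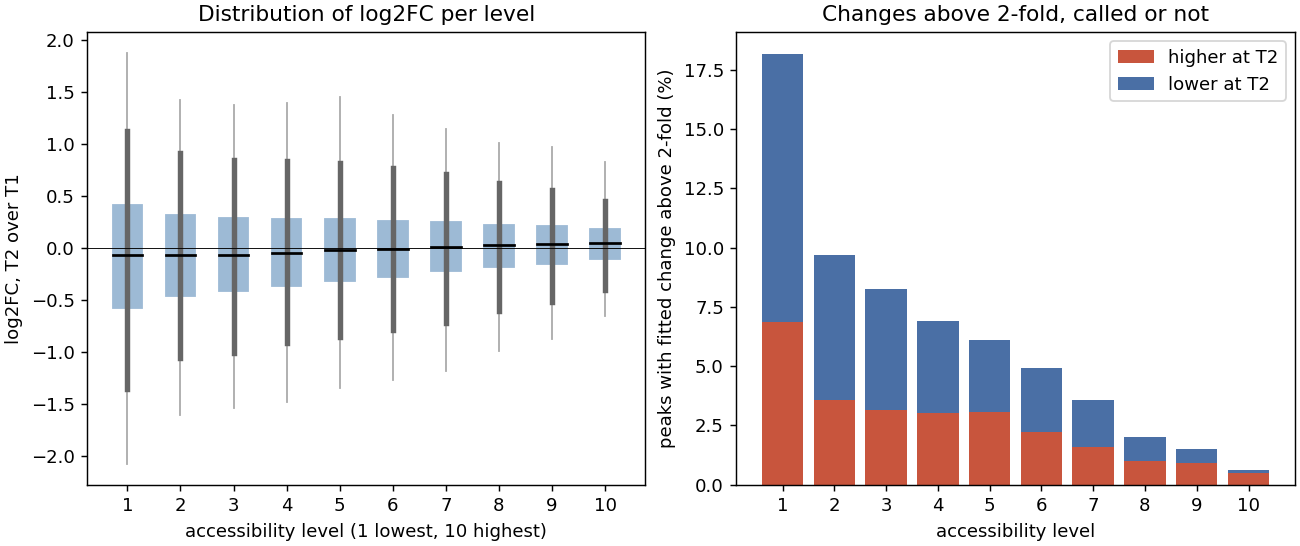
Left, log2FC (T2 over T1) in each of the 10 accessibility levels of 9236 peaks, with the median as a black line, the middle 50% of peaks as a box, the middle 90% as a thick line and the middle 98% as a thin line. Right, percentage of peaks in each level with a fitted change above 2-fold, divided into higher and lower at T2, which falls from 18.2% in level 1 to 0.639% in level 10.

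Much of this narrowing went together with the error of the estimate. The median standard error of a log2FC was 0.57 in level 1, 0.31 in level 5 and 0.19 in level 10, and the median absolute log2FC followed it closely at 0.49, 0.29 and 0.15. Counting error alone accounted for a median standard error of 0.25 in level 1 and 0.04 in level 10, so that in every level the spread between libraries of 1 time point exceeded the sampling of reads. The parts of fish and of library preparation in that spread cannot be told apart. At the P of the last call (4.79e-05), a peak with the median error of its level would have needed a log2FC of 3.59 in level 1, 1.94 in level 5 and 1.19 in level 10 to be a DAR. The smallest absolute log2FC of an actual DAR was 5.59, 1.63 and 1.21 in these levels. Weakly accessible peaks could therefore be called only at changes far beyond 2-fold.

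For the same reason the peaks without a call differ in what can be said of them. The 95% interval of the log2FC lay wholly between -1 and 1 for 47788 peaks (51.7%, not adjusted over peaks). This share was 0.184% in level 1, 51.3% in level 5 and 94.3% in level 10. At the most accessible peaks a change beyond 2-fold was thus outside the interval for nearly all, whereas in level 1 few peaks could be bounded in this way. These shares depend on the scaling and the fit: over all peaks the share was 0.0888% with mapped reads as library sizes and 39.1% in 1 fit of all 12 libraries. An interval wholly between -0.5 and 0.5 was found for only 5730 peaks (6.20%), so that a small change was not established for most peaks. An interval wholly beyond 2-fold was found for 357 peaks, 183 higher and 174 lower at T2.

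Peaks of intermediate accessibility were most often apart between T1 and T2. The share with an unadjusted P under 0.05 was 8.85% in level 1 and 8.20% in level 2, rose to 15.7% in level 7 and fell to 9.72% in level 10, beside 12.2% over all peaks. When the levels were set by the T3 and T4 libraries, which took no part in the comparison, level 7 was again highest with 15.1% and level 10 had 9.09%, but level 1 had 12.2%, the same as all peaks. The DARs were also most frequent in the middle and upper levels, with 15 each in levels 5 and 8 (0.162% of the level, beside 0.0964% overall) and 12 each in levels 7 and 9, against 9 in level 6, 3 in level 1 and 5 in level 10. With levels from the T3 and T4 libraries, level 1 held 7 DARs, level 5 held 14, level 8 held 9 and level 9 held the most with 15.

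**Figure D2:**
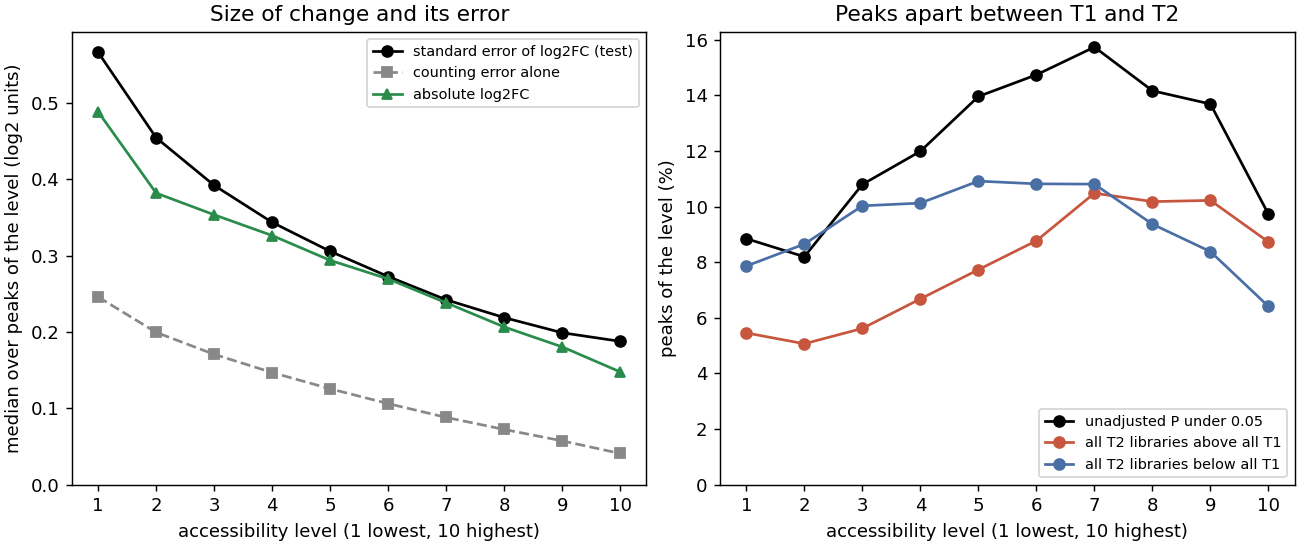
Left, median over the peaks of each level of the standard error of log2FC, the standard error from counting alone and the absolute log2FC, all in log2 units. Right, percentage of peaks per level with an unadjusted P under 0.05 and with all 3 T2 libraries above or below all 3 T1 libraries, with the highest share of small P in level 7 at 15.7%.

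The libraries can also be compared directly, without a model. In 15912 peaks (17.2%) the T1 and T2 libraries did not overlap in CPM, with T2 above in 7290 (7.89%) and below in 8622 (9.34%). These peaks were mostly changed by less than 2-fold, which held for 81.6% of those above and 77.1% of those below. Among all orders of 3 against 3 libraries, a share of 0.1 sets the groups apart. With mapped reads as library sizes, 9.16% of peaks had groups without overlap. Peaks with all T2 libraries below were more frequent than peaks with all T2 libraries above in level 1 (7.86% against 5.46%) and less frequent in level 10 (6.41% against 8.73%). All 89 DARs were among the peaks without overlap.

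The direction of change varied with accessibility, but this depended on single libraries and on the scaling, and levels set by the T1 libraries alone gave another order. The median log2FC was -0.07 in level 1 and 0.04 in level 10, and peaks higher at T2 made up 46.4% of level 1 and 58.5% of level 10. Of the changes beyond 2-fold in levels 1 to 3, 37.6% were higher at T2 (1257 of 3339), against 46.1% in levels 4 to 7 and 58.0% in levels 8 to 10 (222 of 383). The 13 DARs of levels 1 to 3 comprised 2 higher and 11 lower at T2, whereas the 32 of levels 8 to 10 comprised 19 higher and 13 lower. Without T1 replicate 1, however, the median log2FC was 0.32 in level 1 and -0.06 in level 10, and 72.3% of the changes beyond 2-fold in levels 1 to 3 were then higher at T2. Each T2 library was also set against the T1 mean. In T2 replicate 3, gains made up 30.2% of changes beyond 2-fold in levels 1 to 3 and 60.4% in levels 8 to 10. The shares were 46.9% and 49.1% in T2 replicate 1 and 52.1% and 46.1% in T2 replicate 2. Without T2 replicate 3, the medians of log2FC were -0.007 in level 1 and 0.009 in level 10. Of the fitted changes beyond 2-fold, 41.7% (levels 1 to 3) and 48.4% (levels 8 to 10) were then higher at T2. With loess offsets, which remove trends of each library with accessibility, the shares were 44.4% in levels 1 to 3 and 52.5% in levels 8 to 10. Mapped reads as library sizes gave 74.1% and 88.1%. Levels set by the T1 libraries alone turned the order round, with 54.6% and 22.6%. The T1 values then enter both the level and the log2FC, which by itself favours gains in low levels and losses in high ones. This reversal therefore cannot show whether the trend holds. Levels from the T3 and T4 libraries, which took no part in the comparison, gave a median log2FC of -0.107 in level 1 and 0.0614 in level 10. Peaks higher at T2 then made up 44.2% and 62.1% of these levels. The T3 and T4 libraries were taken after T2, so that a lasting change would enter both the level and the log2FC. That by itself favours gains in high levels and losses in low ones. These levels therefore cannot show whether the trend holds either.

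The profiles of the single libraries differed most within T1. T1 replicate 1, the library with the fewest counts, stood 0.61 above the T1 mean in the median peak of level 1 and 0.21 below it in level 10. T1 replicate 3, the deepest library, stood 0.44 below in level 1. The T2 libraries were at 0.07, 0.12 and -0.16 in level 1 and at 0.03, 0.03 and 0.11 in level 10. In level 1 all T2 libraries thus lay between the extremes of T1, and any mean shift of the weakest peaks was smaller than the differences among the T1 libraries. The part of sequencing depth in this pattern was not tested.

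**Figure D3:**
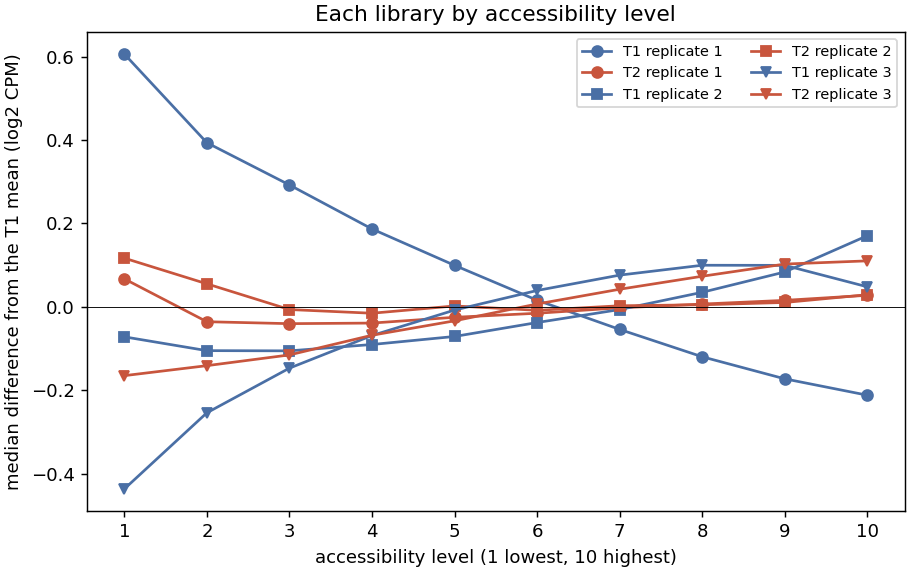
Median difference of each library from the mean of the T1 libraries (log2 CPM) in each accessibility level, with T1 in blue and T2 in red. T1 replicate 1 falls from 0.61 in level 1 to -0.21 in level 10 while the T2 libraries stay within 0.17 of 0 in all levels.

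Between single libraries, differences across time points were only slightly wider than those within one. The SD of the log2 ratio of 2 libraries over all peaks was 0.68 to 0.84 for the 9 pairs of a T1 with a T2 library (median 0.81), 0.66 to 0.85 for the pairs within T1 (median 0.72) and 0.60 to 0.73 for those within T2 (median 0.71). The ranges overlapped. A difference of more than 2-fold was seen for 11.1% to 18.4% of peaks between time points, 9.49% to 16.004% within T1 and 8.69% to 12.7% within T2. The first principal component, with 29.7% of the variance, placed all T2 libraries above all T1 libraries, at scores of 106, 102 and 19.9 against -91.4, -54.7 and -81.1. The second, with 27.9%, separated T1 replicate 1 (144) from T1 replicate 3 (-108).

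T2 replicate 3 was the T2 library nearest to T1. Where T2 lay above T1 without overlap it was the lowest T2 library in 45.9% of peaks, and where T2 lay below it was the highest in 43.2%, whereas T2 replicates 1 and 2 held these places in 24.4% to 29.8%. It had fewer gains beyond 2-fold from the T1 mean (3.57% of peaks, against 5.103% and 5.62% in T2 replicates 1 and 2) but about as many losses (5.71% against 5.77% and 5.65%). With loess offsets the gains were 4.32% and the losses 4.45% in this library, so that the excess of losses was no longer seen. The number of DARs was 1559 without T2 replicate 3, with all 89 among them. Leaving out any other library lowered it, to 7 without T1 replicate 3, 9 without T1 replicate 1, 34 without T1 replicate 2, 13 without T2 replicate 1 and 11 without T2 replicate 2.

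The DARs with increased accessibility had a median log2FC of 1.86 and a median CPM, taken back from mean log2 CPM, of 9.79. Those with decreased accessibility had medians of -1.999 and 4.69. The 3 DARs with an absent group lay beyond these medians of log2FC even at their lower bounds, so that using the bounds could not change either median. Changes beyond 4-fold made up 12 of the 40 increases and 24 of the 49 decreases. No DAR had a neighbour by peak number that was also a DAR. With 0.0964% of tested peaks called and positions not analysed, this says little about clustering. The individual DARs are given below by accessibility, in a low, a middle and a high tier of equal size. The tiers were cut by mean log2 CPM over the 6 libraries, at values that stand for 2.94 and 9.03 CPM. The low tier held 17 DARs (4 higher and 13 lower at T2), the middle tier 37 (15 and 22) and the high tier 35 (21 and 14).

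In the low tier the largest changes were between presence and near absence. A peak near 0 in 1 group has a low mean log2 CPM, so that such changes fall in this tier by construction. The peak with the largest gain and the smallest P, peak98942, had 0, 1 and 1 counts at T1 and 112, 82 and 78 at T2. The groups were far apart, and with the T1 libraries set at 3 counts each it was at least 27.9-fold higher at T2 (edgeR adjusted P = 0.00782). The reverse was seen at peak15254, whose counts of 56, 68 and 159 before the switch were followed by 1, 0 and 1, a loss of at least 28.6-fold (edgeR adjusted P = 0.00828). The counts of peak72452 were 27, 36 and 52 before and 1, 0 and 1 after, a loss of at least 12.4-fold (edgeR adjusted P = 0.0393). Losing any 1 library left peak98942 and peak15254 as DARs, but peak72452 stayed one in 1 of the 6 fits only. In 1 fit of all 12 libraries no peak was called, with edgeR adjusted P values of 0.133 for peak98942 and 0.178 for peak15254. Of the other named DARs, peak53804, peak87193 and peak88473 stayed DARs in 4 of these 6 fits and the rest in 1 or 2. A further peak, peak89506, was chosen after its values were seen. It had 20, 28 and 20 counts at T1 and 2, 1 and 1 at T2 (edgeR adjusted P = 0.0803). With the T2 libraries set at 3 counts each the loss was 8.004-fold. The 95% interval of its log2FC, from -5.80 to -2.30, also held smaller losses. These 4 were the only tested peaks with 3 counts or fewer in every library of 1 group and 10 or more in every library of the other. Each of these folds takes the mean of the high group as it is, so that it covers counting error of the low group only. Read pairs copied by PCR are not independent.

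The third large loss of the low tier, peak53804, had a CPM of 18.4, 18.3 and 34.7 at T1 and 0.04, 0.75 and 0.00 at T2 (log2FC -6.62, standard error 0.70, edgeR adjusted P = 0.0162). It was high in every T1 library and nearly closed in every T2 library, though its later libraries ranged from 0.00 to 18.5 CPM. The size of this loss rested on T2 replicate 2, which held 13 counts against 1 and 0 in the other two, and without it the log2FC was -9.70. The robust fit did not call the peak (edgeR adjusted P = 0.0751). Among gains, peak12603 rose from 1.82, 0.88 and 0.80 CPM at T1 to 7.39, 7.23 and 8.20 at T2 (log2FC 2.76, standard error 0.35, edgeR adjusted P = 0.0270). For peak11574 the values were 1.03, 0.83 and 0.96 at T1 and 3.85, 4.17 and 6.34 at T2 (log2FC 2.34, edgeR adjusted P = 0.0427). In both, the lowest T2 library was well above the highest T1 library.

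The largest uncalled gain and loss of the low tier among peaks without overlap had uneven T1 libraries. For peak23813 the T1 libraries had 36, 0 and 0 counts and the T2 libraries 319, 291 and 207, a log2FC of 4.19 with a standard error of 1.05 (edgeR adjusted P = 0.133). For peak53369 they had 162, 18 and 309 counts at T1 and 10, 6 and 4 at T2 (log2FC -4.55, standard error 0.83, edgeR adjusted P = 0.0671). By the naming rule all T2 libraries of both peaks lay on 1 side of all T1 libraries, and the T1 libraries differed widely among themselves.

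In the middle tier the gains were graded rather than from 0, and the sorting by mean log2 CPM bears on this too. The largest, peak74210, had CPM values of 0.87, 1.42 and 0.77 at T1 and 12.3, 8.33 and 6.15 at T2 (log2FC 3.13, standard error 0.37, edgeR adjusted P = 0.0256). Next, peak23536 had 0.95, 1.96 and 1.06 at T1 and 9.60, 6.94 and 6.30 at T2 (log2FC 2.51, edgeR adjusted P = 0.0411), and peak92899 had 1.42, 1.76 and 1.44 against 11.9, 8.22 and 5.96 (log2FC 2.49, edgeR adjusted P = 0.0292). In all 3 gains T2 replicate 1 was the highest and T2 replicate 3 the lowest of the T2 libraries.

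The losses of the middle tier were of similar size in most libraries. For peak87193 the CPM was 8.78, 8.28 and 8.70 at T1 and 1.15, 1.56 and 0.86 at T2 (log2FC -2.85, standard error 0.30, edgeR adjusted P = 0.0162). For peak45920 it was 7.60, 7.79 and 8.60 at T1 and 1.02, 1.79 and 0.86 at T2 (log2FC -2.72, edgeR adjusted P = 0.0270). For peak88473, which had the third smallest P of all peaks, it was 9.02, 11.5 and 11.7 at T1 and 1.90, 1.68 and 1.96 at T2 (log2FC -2.53, standard error 0.25, edgeR adjusted P = 0.0162). The T2 values of each lay within 1 CPM of each other. Less even was peak20865, with 7.91, 17.5 and 10.1 at T1 and 1.19, 1.33 and 2.81 at T2 (log2FC -2.73, edgeR adjusted P = 0.0427).

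In the largest uncalled gain and loss of the middle tier among peaks without overlap, the libraries were again uneven. The CPM of peak68250 was 1.35, 1.67 and 1.06 at T1 and 22.9, 11.6 and 3.01 at T2 (log2FC 3.21, standard error 0.59, edgeR adjusted P = 0.0706). That of peak15916 was 2.85, 26.7 and 28.5 at T1 and 1.68, 2.03 and 1.10 at T2 (log2FC -3.61, standard error 0.66, edgeR adjusted P = 0.0699). In the first the gain was small in T2 replicate 3, and in the second T1 replicate 1 was already near the T2 level.

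In the high tier the largest gain of a DAR was at peak94627, with a CPM of 4.43, 4.90 and 4.59 at T1 and 51.1, 34.7 and 16.5 at T2 (log2FC 2.87, standard error 0.35, edgeR adjusted P = 0.0270). It was even among T1 libraries and uneven among T2 libraries. For peak54922 the values were 5.38, 9.07 and 5.14 at T1 and 41.5, 35.5 and 21.9 at T2 (log2FC 2.33, edgeR adjusted P = 0.0270). For peak27693 they were 6.49, 16.8 and 6.29 at T1 and 59.6, 44.1 and 43.4 at T2 (log2FC 2.31, edgeR adjusted P = 0.0434). The robust fit did not call peak27693 (edgeR adjusted P = 0.0699). The naming rule took only DARs whose groups did not overlap, so that their separation was set in advance.

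The losses of the high tier were smaller, but a large loss also lowers the mean log2 CPM by which the tiers were cut. The largest was at peak43116, with a CPM of 24.9, 14.3 and 20.3 at T1 and 3.89, 6.94 and 6.20 at T2 (log2FC -1.80, standard error 0.28, edgeR adjusted P = 0.0480). For peak71323 the CPM was 22.7, 21.7 and 15.3 at T1 and 5.31, 4.51 and 7.35 at T2 (log2FC -1.79, edgeR adjusted P = 0.0418), and for peak51879 it was 21.1, 15.5 and 20.7 against 4.11, 7.12 and 5.68 (log2FC -1.76, edgeR adjusted P = 0.0421). These peaks kept some accessibility in every T2 library.

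Among highly accessible peaks without overlap of groups, the largest fitted change was not a DAR. At peak39848 the CPM was 9.89, 15.0 and 8.12 at T1 and 283, 158 and 24.1 at T2, lowest in T2 replicate 3 and highest in T2 replicate 1. The log2FC was 3.82 with a standard error of 0.67 and an edgeR adjusted P of 0.0645, and without T2 replicate 3 it was 4.33 with an edgeR adjusted P of 0.000627. Its T3 and T4 libraries were at 19.4 to 85.8 CPM. The largest uncalled loss of the high tier among peaks without overlap was at peak62043. It fell from 23.3, 36.7 and 35.2 CPM to 3.54, 7.93 and 10.7 (log2FC -2.11, standard error 0.34, edgeR adjusted P = 0.0533), just short of the threshold.

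**Figure D4:**
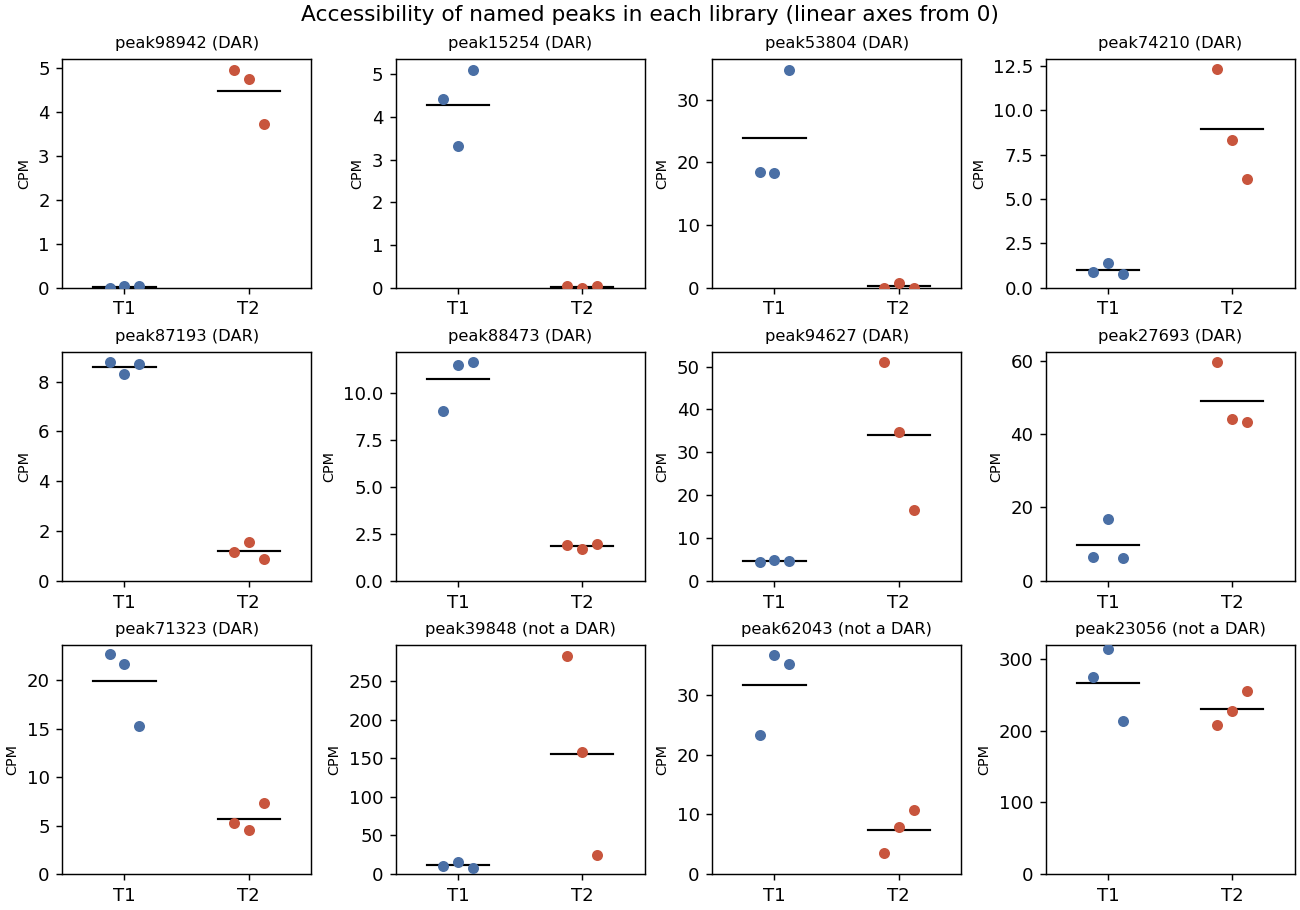
CPM (TMM-scaled) of 12 named peaks in each T1 (blue) and T2 (red) library, in order of replicate from left to right, with the group mean as a black line and linear axes from 0. The 9 DARs show groups without overlap, as did all 89 DARs, peak39848 spreads from 24.1 to 283 CPM at T2, and peak23056 overlaps between T1 and T2.

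Level 10 held 5 DARs (0.0541% of the level, beside 0.0964% overall), and all of them were more accessible at T2. Among all fitted changes beyond 2-fold in this level, 44 of 59 were higher at T2. Of all 89 DARs, 3 to 18 remained when 1 library other than T2 replicate 3 was left out. The 5 DARs of level 10 were not covered by the naming rule as a set and were chosen after their values were seen. The largest, peak12735, had a CPM of 34.03, 45.8 and 41.0 at T1 and 204, 160 and 106 at T2 (log2FC 1.96, standard error 0.25, edgeR adjusted P = 0.0270). In peak92103 the values were 25.6, 21.4 and 18.8 against 71.5, 59.9 and 64.2 (log2FC 1.58, standard error 0.18, edgeR adjusted P = 0.0239). The other members were peak49322 (log2FC 1.92), peak68638 (1.31) and peak20624 (1.21). In peak92103, peak68638 and peak20624 the gain was of similar size in every T2 library, while peak49322 ranged from 36.2 to 98.5 CPM at T2.

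The 3 most accessible peaks of all were not called. For peak23056 the CPM was 274, 314 and 213 at T1 and 208, 227 and 255 at T2, a log2FC of -0.22 with a 95% interval from -0.66 to 0.23 (edgeR adjusted P = 0.730). For peak88729 the log2FC was -0.22 (95% interval -0.60 to 0.17, edgeR adjusted P = 0.676), with 251, 291 and 251 CPM at T1 and 230, 232 and 219 at T2, so that its groups did not overlap. For peak77409 it was 0.18 (95% interval -0.33 to 0.68, edgeR adjusted P = 0.821). All 3 intervals lay within 2-fold of no change.

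The number of DARs depended on the test, and 1 edgeR quasi-likelihood fit of all 12 libraries called 0, with 6083 peaks at an unadjusted P under 0.05. DESeq2 called 1520 DARs (716 higher and 804 lower at T2) and the exact test of edgeR 1504 (679 and 825), and these included 88 and 89 of the 89. The paper used edgeR with the same thresholds and reported far more DARs at T2 than 89. Its methods do not name the edgeR test. Under the exact test the share of peaks called was 1.56% in level 1, 2.38% in level 5, 2.33% in level 7 and 0.541% in level 10, and with DESeq2 it was 0.974%, 2.58%, 2.46% and 0.520%. In both tests levels 5 to 7 had the highest shares. The DARs of level 10 were mostly gains, 39 of 50 with the exact test and 36 of 48 with DESeq2. Among all fitted changes beyond 2-fold in that level, called or not, 44 of 59 were higher at T2. Losses were more frequent in the low levels, and most one-sided in level 2. With the exact test they were 97 of 144 in level 1, 78 of 100 in level 2 and 86 of 136 in level 3. With DESeq2 they were 55 of 90, 66 of 91 and 79 of 134. Among all fitted changes beyond 2-fold, losses were 1044 of 1679, 566 of 896 and 472 of 764 in these levels. Both tests used the same 6 libraries. Without T1 replicate 1, 72.3% of fitted changes beyond 2-fold in levels 1 to 3 were higher at T2. A test of the log2FC against 1 in place of 0 (glmTreat) called only peak98942 and peak15254.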

How the data were processed

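Liver ATAC-seq libraries of T1 and T2 (3 biological replicates each) were grouped by their labels. The authors mapped reads with Bowtie2 2.3.5.1 to ICSASG_v2, discarded duplicates, mitochondrial reads and reads with several matches, used MACS2 for peaks, retained those shared by 2 or more replicates of any time point as a merged set, and obtained the deposited counts per peak with HTSeq 0.11.1. A shift of reads for Tn5 is not given in the sources used here. From these counts the authors also deposited log2(CPM + 1), used only in an alternative test.

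Counts were tested with R 4.3.3 and edgeR 4.0.16: CPM above 1 in at least 2 of 6 libraries, TMM, the quasi-likelihood test without a replicate block, and Benjamini-Hochberg adjustment over 92360 peaks. Standard errors were absolute log2FC over the root of F. Intervals (95%) used the same errors. Levels used mean TMM-scaled log2 CPM. Depth was 11796690 to 31312069 counts in peaks. The code was tested on simulated data.

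Named peaks were, per tier, the 3 highest and 3 lowest DARs by log2FC without overlap of groups and the highest and lowest such peak with an adjusted P of 0.05 or more, with the 3 DARs of smallest P and the 3 most accessible peaks. The members, lists and tests were chosen with earlier results of these data known. Alternatives were DESeq2 1.42.0, limma 3.58.1, edgeR's exact test and glmTreat, other scalings and filters, a replicate block, 1 fit of 12 libraries and leaving out libraries. Mapped reads came from the study's mapping table, where the row described as T2 replicate 2 bears the code of another library.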

Additional observations from a re-analysis of the deposited data

How the results depend on the processing

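The number of DARs (89, 40 higher and 49 lower at T2) was the least stable value. It was 7 to 1559 with 1 library left out (2 to 841 higher and 4 to 718 lower; 7 to 1650 past the adjusted P alone). It was 1520 with DESeq2 (716 and 804; 2014 past the adjusted P), 1504 with the exact test (679 and 825; 1872), 303 with a robust fit (131 and 172; 312), 136 with limma on log2 values (56 and 80; 141), 137 with at least 10 counts in every library (65 and 72; 138), 404 with mapped reads as library sizes (302 and 102; 404), 60 with loess offsets (24 higher), 2 with glmTreat (1 and 1), and 2 at an adjusted P under 0.01 (1 and 1). In 1 edgeR fit of all 12 libraries it was 0 (0 higher, 0 lower), with 6083 peaks at an unadjusted P under 0.05. Loess offsets without T1 replicate 1, added after the data were seen, gave 4 (3 and 1). The causes were not tested. Deviations of libraries with the same replicate number correlated weakly between T1 and T2 (0.09, -0.04 and 0.12 for replicates 1, 2 and 3). T1 replicates 1 and 3 correlated most with their own number at T2, and T1 replicate 2 did not. Whether libraries of 1 number shared their handling was not tested. The fit with a replicate block called 299 DARs (164 and 135; 299 past the adjusted P), with all 89 among them.

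The median log2FC was -0.0250 without TMM, 0.00975 with RLE factors and 0.18 with mapped reads, and -0.0173 to 0.0178 with a library left out. Peaks beyond 2-fold were 6.70% to 8.35% with a library left out and 4.94% with 10 counts in every library. Intervals within 2-fold held for 41.9% to 48.2% with a library left out, 54.5% with loess offsets, 54.5% with 10 counts in every library, 39.1% in the fit of 12 libraries and 0.0888% with mapped reads. With mapped reads 9.16% of peaks had groups without overlap, and the level medians were 0.26 (level 1) and 0.19 (level 10). With a library left out these medians ranged from -0.24 to 0.32 and from -0.0594 to 0.134, and the shares beyond 2-fold from 18.3% to 23.5% and from 0.455% to 1.55%. With 10 counts in every library the share in level 1 was 8.97%. Levels set by T1 alone, whose values also enter the log2FC, gave a median of 0.27 in level 1. With them 54.6% (levels 1 to 3) and 22.6% (levels 8 to 10) of changes beyond 2-fold were higher at T2. These shares were 74.1% and 88.1% with mapped reads, and 26.5% to 72.3% and 48.4% to 67.5% with a library left out. Of 357 refits of the 19 named DARs, 237 kept the call, 120 lost it and 0 reversed its direction. Of 167 refits of the 9 named peaks that were not DARs, 32 called them.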
